A study of Mus musculus with 8 samples.

Results

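The 39 genes described here encode the contractile machinery of a myofibroblast and the factors that switch it on, namely actins, myosins, the proteins that decorate and crosslink actin filaments, intermediate filaments, and serum response factor (SRF) with its coactivators and upstream regulators. They were chosen by name, as 39 of the 40840 genes listed for every library, and 38 of them had enough counts to be tested. RNA-seq had been run on primary hepatic stellate cells, the pericytes that store vitamin A in the healthy liver, that had become myofibroblastic in culture (pMF-HSCs). The cells were sorted by their retinol autofluorescence from livers of male wild-type C57BL/6J mice aged 15 to 18 weeks and grown for 7 days on plastic. They then received vehicle (DMSO, control, n = 4) or 50 µM OSMI-1 (OGTi, n = 4) for 24 h. OSMI-1 inhibits OGT, the enzyme that attaches the sugar O-GlcNAc to nuclear and cytoplasmic proteins. The 4 treated libraries and the 4 vehicle libraries share replicate numbers, and the study paired those of one number. The cells are activated by plastic and by serum, which limits them as a model of stellate cells in a scarred liver.

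Contraction in these cells depends on myosin II motors pulling on actin filaments inside stress fibres. Myosin light-chain kinase switches the motors on by phosphorylating their light chains, and a phosphatase switches them off again. Actin itself feeds back on transcription. Monomeric actin binds and holds the coactivators MRTF-A and MRTF-B, and when monomers are used up in filaments the coactivators join SRF on CArG boxes, a short element of A and T bases between CC and GG. Many smooth muscle and cytoskeletal genes carry such boxes, and alpha smooth muscle actin (Acta2) is the textbook marker of an activated stellate cell.

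The CArG box is the sequence through which SRF acts, so it was looked for in the members first. RefSeq promoters (250 bases before to 50 bases after a gene start, from a GRCm38.p6 table, both strands) were given for 33 of the 39 members. Tagln, Myh11, Myocd, Actg2, Actb and Rock1 were not in that table. Only exact matches of 10 bases (CC, then A or T only, then GG) were counted. A box that departs from this pattern or lies outside the window was therefore scored as absent. A CArG box stood in 7 of the 33 (21.2%), against 488 of all 27025 genes with a promoter (1.81%). The Acta2 promoter held no exact match. The windows below were placed in GRCm39 by exact match and are shown 5′ to 3′ on the gene's strand, with the box in capitals, because they are the members whose promoter holds the element and they differ in their calls.

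Acta1 CArG, chr8:124621568-124621597, minus strand: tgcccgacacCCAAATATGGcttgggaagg
Actc1 CArG, chr2:113883384-113883413, minus strand: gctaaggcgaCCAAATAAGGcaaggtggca
Actg1 CArG, chr11:120239392-120239421, minus strand: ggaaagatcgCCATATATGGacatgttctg
Myl6 CArG, chr10:128328909-128328938, minus strand: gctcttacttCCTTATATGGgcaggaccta
Myl9 CArG, chr2:156617213-156617242, plus strand: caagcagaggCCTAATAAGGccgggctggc
Cnn2 CArG, chr10:79824368-79824397, plus strand: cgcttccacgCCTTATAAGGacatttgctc
Srf CArG, chr17:46867141-46867170, minus strand: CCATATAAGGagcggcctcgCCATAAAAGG

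The boxes began 73 (Acta1), 47 (Actc1), 90 (Actg1), 50 (Myl6), 161 (Myl9) and 56 (Cnn2) bases before the RefSeq start. Those of Srf, which holds a pair, began 82 and 62 bases before it. GENCODE vM39 places the windows of Cnn2 and Srf outside the annotated gene and the other 5 within an exon of a transcript of the same gene that starts further upstream. Of the 7 genes, Cnn2 fell and the other 6 did not pass the test. Among members with a promoter, 1 of 9 that fell (11.1%) and 6 of 23 that did not pass the test (26.1%) held a box.

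The MCAT element, which TEAD factors bind and which was searched as CATTCC or GGAATG, was also common among the members. It stood in 13 of 33 (39.4%), against 16.6% of all 27025 genes. It was present in members that fell, in the one that rose and in Acta2, which did neither. Of members with a promoter, 5 of 9 that fell (55.6%) and 7 of 23 that did not pass the test (30.4%) held it. The following windows are shown with the element in capitals.

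Mylk MCAT, chr16:34605150-34605179, plus strand: tgcagttcagaaCATTCCctggtacgtgca
Tagln2 MCAT, chr1:172327683-172327712, plus strand: tcctttacggctCATTCCtgcctactgacc
Myh10 MCAT, chr11:68582722-68582751, plus strand: gccaatgagcatCATTCCaggtgggtggag
Flnc MCAT, chr6:29433139-29433168, plus strand: cgggccgggcggCATTCCtgggaggccggc
Acta2 MCAT, chr19:34232902-34232931, minus strand: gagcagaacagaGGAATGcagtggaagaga

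These elements began 158 bases (Mylk), 118 bases (Tagln2, with another at 80), 7 bases (Myh10), 1 base (Flnc) and 146 bases (Acta2) before a RefSeq start. The Mylk window lies in an intron of the annotated gene, at an internal start, and the other 4 lie in an annotated exon. A match of letters describes the sequence and does not show that a factor was bound there.

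To establish how OGT inhibition affected the contractile program, each member was read from 1 fit over all 19963 genes tested (edgeR, quasi-likelihood, replicate number as a block). Genes counted as called where the p adjusted by the Benjamini-Hochberg method was 0.05 or less. Of the 38 members tested, 9 fell, 1 rose and 28 did not pass the test. Over all genes, 10.2% were called lower, 8.13% were called higher and 18.4% were called in either direction. With a stricter low-count filter 10 members and 25.3% of all genes were called, and with DESeq2 11 of 38 members and 28.2% of all genes were, so that in both the share of members called in either direction was near that of all genes. In the lower direction the stricter filter called 9 members and 13.5% of all genes, and DESeq2 called 10 members and 14.4% of all genes. With library totals in place of TMM 18 members and 20.9% of all genes were called, and with limma on log2(TPM + 1) 16 members and 23.3% of all genes. The members that fell were Mylk, Tagln2, Cnn2, Myh10, Mrtfb, Myh9, Mrtfa, Actn4 and Tpm4, and the one that rose was Flnc. The median log2 fold change (OGTi over control) of the 38 members was -0.40, that of all genes tested was 0.01, and 27 of the 38 members had a value below 0. The CPM values of the 4 OGTi libraries all lay below those of the 4 control libraries in 12 members and all above in 1, where 12.0% and 11.5% of all genes did so.

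**Figure D1:**
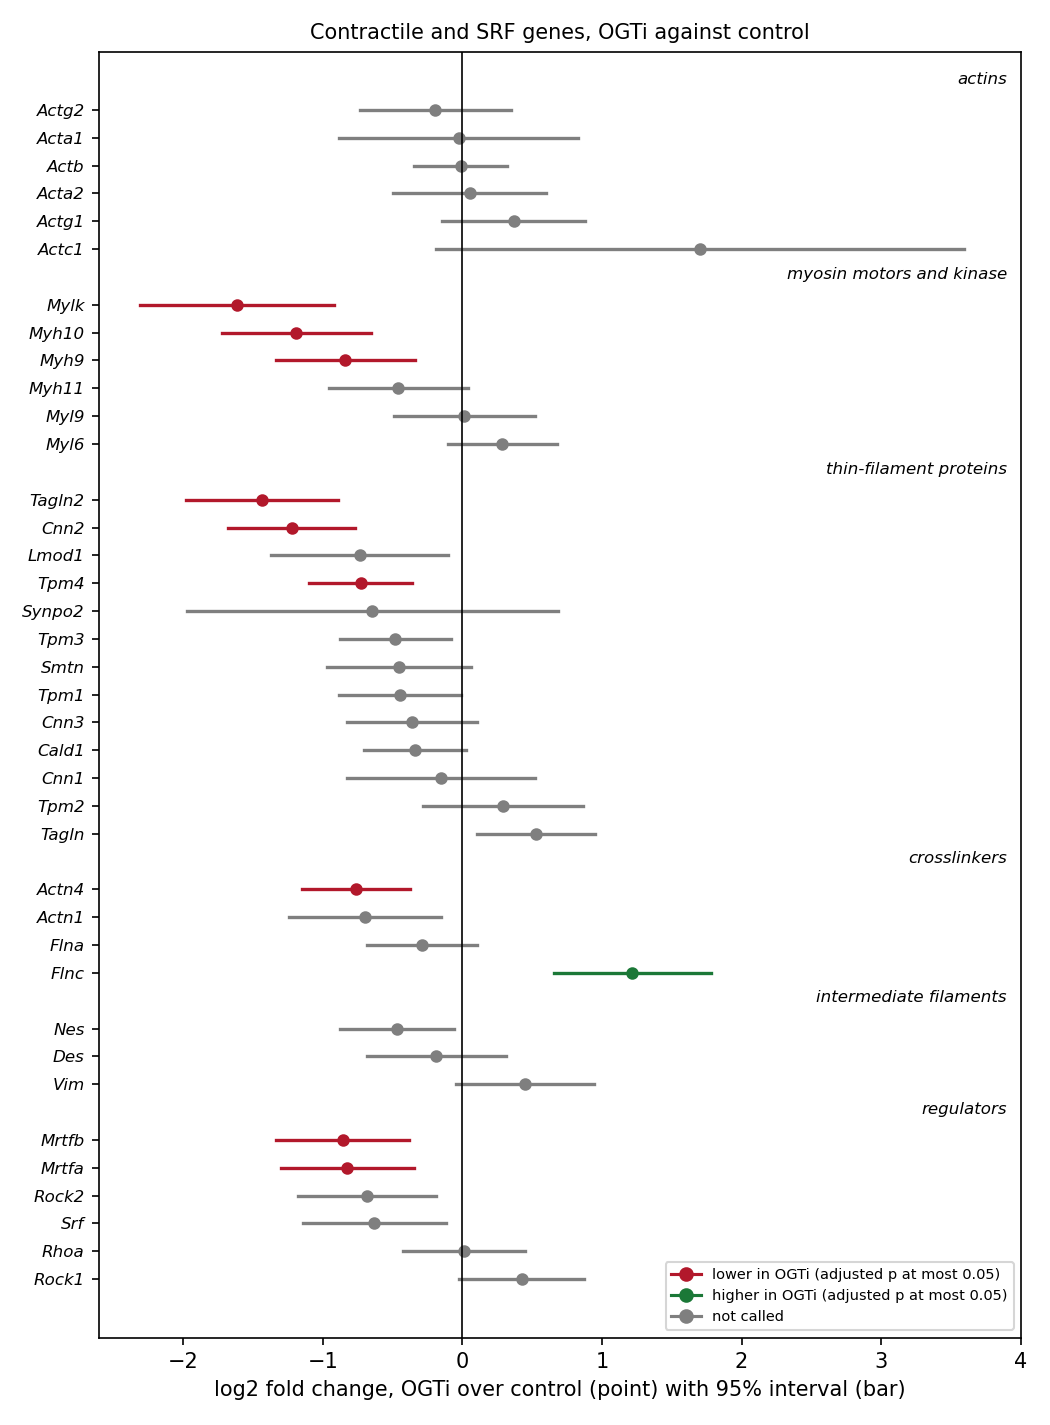
Log2 fold change, OGTi over control, of the 38 members tested, grouped by role, with the point at the estimate and the bar spanning its 95% interval from the edgeR fit (n = 4 pairs). The 9 members that fell (red) range from -1.61 (Mylk) to -0.73 (Tpm4), Flnc (green) is at 1.22, and the 6 actins are all grey.

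The libraries held 30068876 to 37372420 expected counts, the read counts that RSEM estimates per gene. CPM below are these counts scaled to a common library total with TMM factors and serve to compare one gene between libraries, whereas TPM, which also divides by gene length, serves to compare genes. OGTi replicate 4 had a count in 23746 genes, the other libraries in 19035 to 20293. In these bulk samples, fewer cells of a type and less of an RNA per cell cannot be told apart. Cell identity was checked by marker lists. The stellate cell list (8 genes) summed to 115 to 261 TPM in control and 46.1 to 152 TPM in OGTi, and 3 of its genes (Lrat, Pdgfrb and Hhip) fell. Hepatocyte markers (6 genes) summed to at most 1.67 TPM, with 5 of 6 below 1 TPM in every library, and the remaining one, Cyp2e1, rose. Endothelial markers (6 genes) summed to at most 2.78 TPM, with 5 of 6 below 1 TPM, and Tek and Lyve1 fell. Macrophage markers (6 genes) summed to 49.8 to 169 TPM in control and 87.5 to 226 TPM in OGTi, where Cd68 rose while Adgre1, Clec4f and Ptprc stayed below 1 TPM in every library. Lyz2 averaged 60.3 TPM in control and 70.0 TPM in OGTi, and Csf1r 4.89 and 3.87 TPM, and neither passed the test. The CPM of Lyz2 ranged 9.65-fold within the control group. Mesothelial and cholangiocyte markers (6 genes) summed to 88.5 to 142 TPM in control and 58.0 to 86.3 TPM in OGTi, with Sox9 higher, Krt19 lower and Epcam below 1 TPM. Markers of differentiated smooth muscle outside the members (8 genes) summed to 74.8 to 137 TPM in control and 33.7 to 97.6 TPM in OGTi, 0 of the 6 tested were called by edgeR, DESeq2 or limma and 0 were below an unadjusted p of 0.05, and Pln, Cacna1c and Kcnma1 stayed below 1 TPM. Striated muscle markers (8 genes) summed to 14.5 to 30.7 TPM in control and 10.2 to 24.8 TPM in OGTi, with 6 of 8 below 1 TPM, Myod1 and Ckm among them, and Ttn, one of those 6, rose. The part of these markers in the values below was not tested.

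No actin passed the test in either direction, with 0 of 6 below an unadjusted p of 0.05 in edgeR and 0 called by DESeq2 or by limma on log2(TPM + 1). Acta2 measured 1484, 2043, 2366 and 2171 CPM in control replicates 1 to 4 and 2866, 1344, 1901 and 2486 CPM in OGTi replicates 1 to 4. The groups overlapped, with the highest and the lowest value of all 8 libraries both in the OGTi group. The log2 fold change of Acta2 was 0.05 ± 0.25 (SE, adjusted p = 0.915), with 2 pairs higher and 2 lower. Its 95% interval, from -0.50 to 0.60, leaves room for a change of up to about that size in either direction. Actb, the main cytoplasmic actin, measured 8951, 8352, 9809 and 8862 CPM in control and 8475, 8297, 8929 and 10010.5 CPM in OGTi. The 8 values spanned a narrow range, and the log2 fold change was -0.01 ± 0.15 (SE, adjusted p = 0.969). Actg1, the other cytoplasmic actin, had a log2 fold change of 0.37 ± 0.23 (SE, adjusted p = 0.307), with OGTi replicates 1 and 4 at 3044 and 3500 CPM and replicates 2 and 3 at 1333 and 2033 CPM.

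The muscle actins of low level did not pass the test either. Actg2, the enteric smooth muscle actin, had a log2 fold change of -0.19 ± 0.24 (SE, adjusted p = 0.643), and Acta1, the skeletal muscle actin, one of -0.03 ± 0.38 (SE, adjusted p = 0.974). Actc1, the cardiac actin, measured 0, 0.493, 0.155 and 2.00 CPM in control and 0.115, 0.0940, 0.774 and 17.4 CPM in OGTi, with a log2 fold change of 1.70 ± 0.85 (SE, adjusted p = 0.2). OGTi replicate 4 stood far above every other library, and without that pair the value was 0.92. Actc1 passed the test without replicate 2 and without the low-count filter. The actin paralogs have nearly the same coding sequence, and how the counting divided reads that fit several of them could not be checked, so the lower ones are uncertain.

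The make-up of the actin pool was followed in TPM. The summed actin TPM was 13402 ± 1240.2 in control and 11244 ± 1649 in OGTi (SD, n = 4), lower in 4 of 4 pairs. TPM carry no TMM factor, and the lower sum depends on that scaling. Mean CPM in control and OGTi were 8993 and 8928 for Actb, 2016 and 2149 for Acta2, and 1814 and 2478 for Actg1. Acta2 made up 16.0% ± 2.2 (SD, n = 4) of actin TPM in control and 16.0% ± 3.3 (SD, n = 4) in OGTi. Actb made up 69.2% ± 3.4 and 65.8% ± 7.4, and Actg1 13.9% ± 1.7 and 17.4% ± 4.5 (each SD, n = 4). The difference between the groups was within 1 SD of the pair differences for each of these 3 actins. The small share of Actg2, 0.79% ± 0.29 and 0.67% ± 0.29 (SD, n = 4), was lower in 4 of 4 pairs. No test was run on the shares.

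Among the motors, the non-muscle heavy chains and the activating kinase fell. Mylk (chr16:34565580-34822790, GRCm39), the kinase that phosphorylates the myosin light chains, had the largest fall of all members. It measured 63.5, 136, 185 and 139 CPM in control and 51.1, 33.6, 45.7 and 34.1 CPM in OGTi. The groups did not overlap, and the lowest control value was replicate 1. Mylk was 3.06-fold lower in OGTi (log2 fold change of -1.61 ± 0.31 SE, adjusted p = 0.00627), with 3 pairs near -2.0 on the log2 scale and replicate 1 at -0.31. Mylk passed the test in all 14 alternative analyses.

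Myh10 (chr11:68582385-68707470), the heavy chain of non-muscle myosin IIB, measured 28.1, 25.5, 28.1 and 29.1 CPM in control and 10.4, 17.3, 11.0 and 11.0 CPM in OGTi. Its control values lay close together, and all 4 OGTi values were below them, with replicate 2 apart from the other 3. The log2 fold change was -1.19 ± 0.24 (SE, adjusted p = 0.00764). Myh9 (chr15:77644785-77726381), the heavy chain of non-muscle myosin IIA and the most abundant heavy chain per length, measured 143, 119.6, 170.4 and 266 CPM in control and 53.3, 97.0, 96.0 and 152 CPM in OGTi. The groups overlapped between cultures, while Myh9 was lower within each of the 4 pairs, with a log2 fold change of -0.84 ± 0.22 (SE, adjusted p = 0.0272). Without the block Myh9 did not pass the test, nor did it without replicate 1, 3 or 4.

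Myh11, the smooth muscle heavy chain, differed far more between cultures than between treatments. It measured 9.65, 16.6, 34.3 and 45.0 CPM in control and 5.72, 10.02, 28.8 and 41.5 CPM in OGTi, a range of 4.67-fold within the control group. The order of the 4 replicates was the same in both groups, and each pair was lower by 0.12 to 0.74 on the log2 scale, which did not pass the test (log2 fold change of -0.46 ± 0.22 SE, adjusted p = 0.192). The regulatory light chain Myl9 measured 811, 1098, 1364 and 1067 CPM in control and 1475, 868, 1125 and 953 CPM in OGTi. Replicate 1 rose by 0.86 on the log2 scale and the other 3 pairs were lower, and the estimate was near 0 (0.01 ± 0.23 SE, adjusted p = 0.975). The essential light chain Myl6 had a log2 fold change of 0.29 ± 0.17 (SE, adjusted p = 0.294), higher in 4 of 4 pairs.

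In TPM, Myh9 made up 75.6% ± 3.3 (SD, n = 4) of the 3 heavy chains in control and 73.9% ± 4.2 in OGTi. The share of Myh10 was 11.8% ± 3.2 in control and 9.61% ± 4.3 in OGTi and was lower in 4 of 4 pairs. The share of Myh11 was 12.6% ± 4.7 in control and 16.5% ± 8.1 in OGTi (all SD, n = 4). For Myh9 and Myh11 the difference was within 1 SD of the pair differences.

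**Figure D2:**
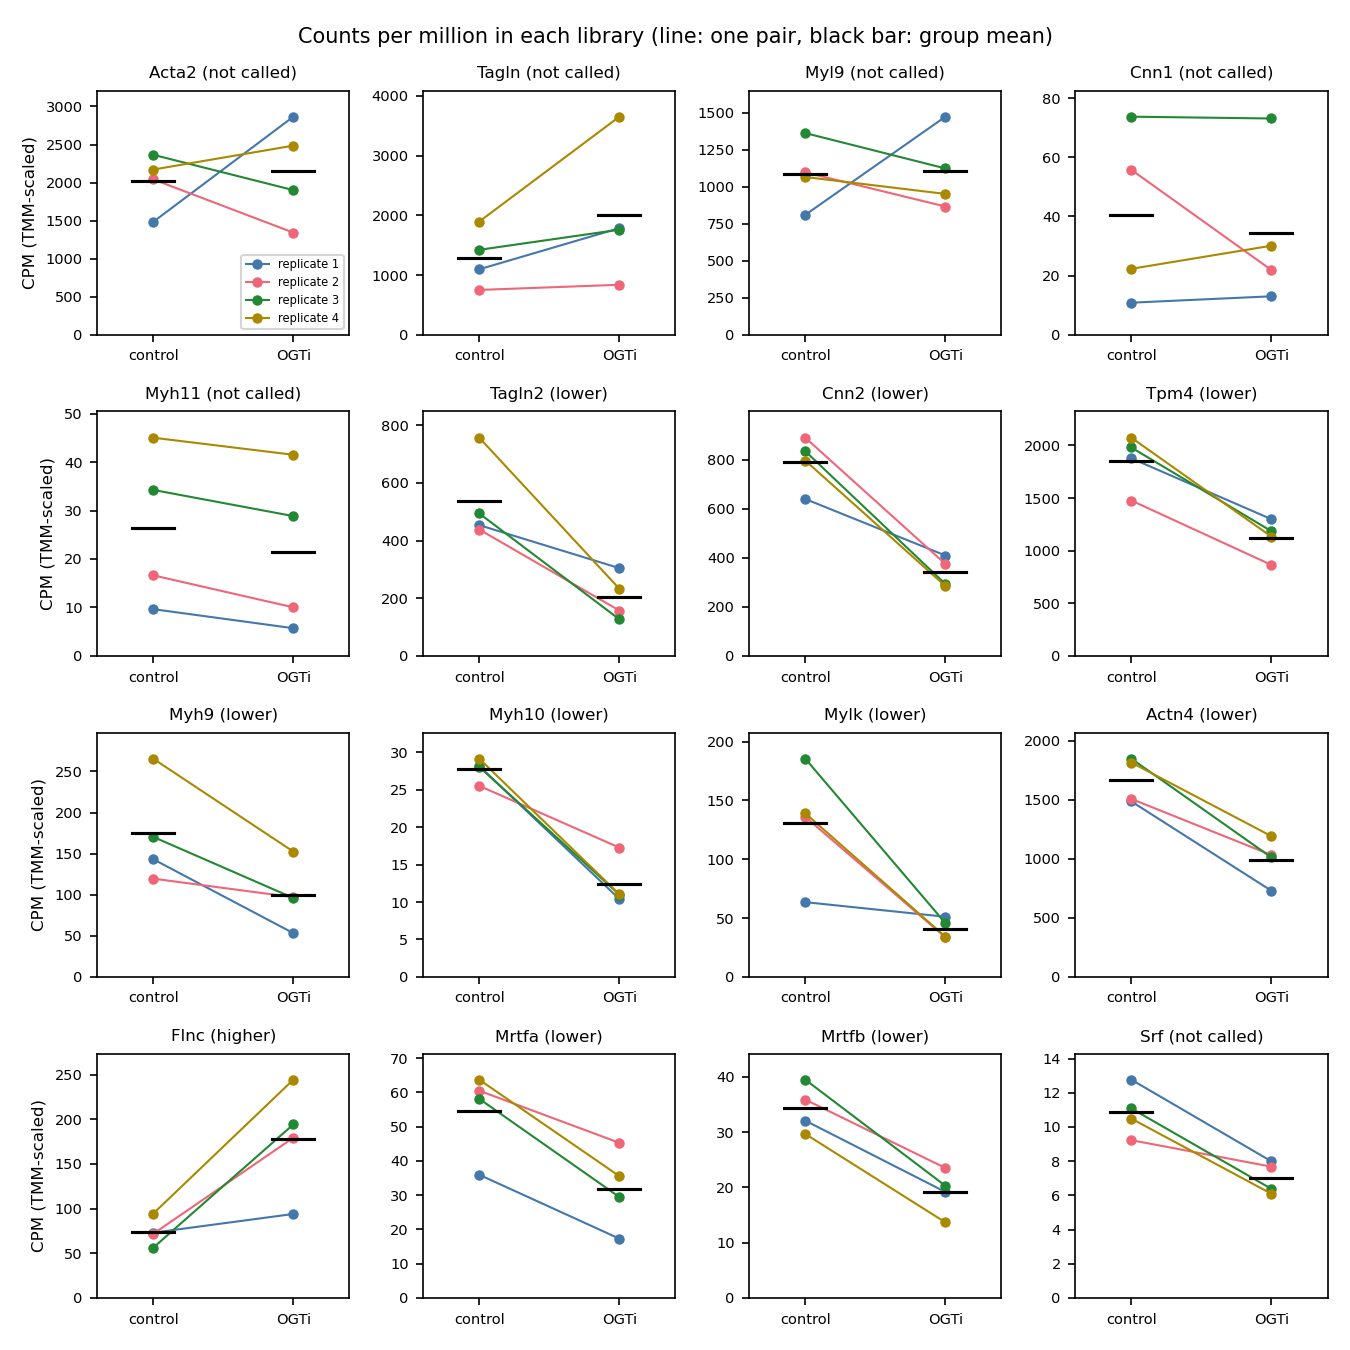
CPM (TMM-scaled, linear axis from 0) of 16 members in every library, with each line joining the control and the OGTi library of one replicate number and the black bar at the group mean (n = 4). Tagln2, Cnn2, Tpm4, Myh10, Mylk, Actn4, Mrtfb and Srf, the last not called, have all 4 OGTi values below all 4 control values, while the lines of Acta2, Myl9 and Cnn1 cross.

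Of the 13 proteins that line the thin filament, Tagln2, Cnn2 and Tpm4 fell. Tagln2 (chr1:172327426-172334947), the transgelin found in most cell types, measured 453, 438, 494 and 756 CPM in control and 304, 157, 127 and 233 CPM in OGTi. No OGTi library reached the lowest control value, and Tagln2 was 2.70-fold lower (log2 fold change of -1.43 ± 0.25 SE, adjusted p = 0.00353). Its smooth muscle paralog Tagln (SM22-alpha), an SRF target used as a marker of contractile cells, measured 1098, 753, 1424 and 1897 CPM in control and 1787, 839, 1761 and 3652 CPM in OGTi. Tagln was higher in 4 of 4 pairs and its groups overlapped, and the estimate of 0.53 ± 0.19 (SE, adjusted p = 0.082) did not pass the test. The difference between the changes of Tagln and Tagln2 was not tested.

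The calponins bind actin and damp myosin activity. Cnn2 (chr10:79824410-79831896), the calponin of non-muscle cells, measured 639.6, 889.5, 834 and 796 CPM in control and 409, 375, 293 and 285 CPM in OGTi. The highest OGTi value was well below the lowest control value, and Cnn2 was 2.33-fold lower (log2 fold change of -1.22 ± 0.21 SE, adjusted p = 0.00328), with every pair lower by 0.64 to 1.51 on the log2 scale. Cnn1, the smooth muscle calponin, measured 10.9, 55.7, 73.7 and 22.3 CPM in control and 13.0, 21.9, 73.1 and 30.1 CPM in OGTi. Replicate 3 was high and replicate 1 low in both groups, and the log2 fold change was -0.16 ± 0.30 (SE, adjusted p = 0.779). Cnn3, the acidic calponin, had a log2 fold change of -0.36 ± 0.21 (SE, adjusted p = 0.273). Cnn2 and Tagln2 passed the test in all 14 alternatives, as Mylk did.

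Tropomyosins wind along the actin filament and influence which motors bind it. Tpm4 (chr8:72884018-72906987), a mainly cytoskeletal form, measured 1878, 1477, 1981 and 2074 CPM in control and 1299, 865, 1185 and 1133 CPM in OGTi. The groups did not overlap and the 4 pairs fell by 0.53 to 0.87 on the log2 scale (log2 fold change of -0.73 ± 0.17 SE, adjusted p = 0.0134). Tpm4 did not pass without replicate 2, 3 or 4 or with upper-quartile scaling. Tpm3 also had all 4 OGTi values below the control values but did not pass the test, at -0.48 ± 0.18 (SE, adjusted p = 0.0933). Tpm1 stood at -0.45 ± 0.20 (SE, adjusted p = 0.151) and Tpm2, the form of smooth and slow skeletal muscle, at 0.29 ± 0.26 (SE, adjusted p = 0.492).

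Because all 4 tropomyosin genes are expressed at high levels, their proportions could be followed. Tpm4 made up 46.2%, 37.4%, 41.2% and 40.2% of tropomyosin TPM in control replicates 1 to 4 and 34.7%, 36.4%, 36.1% and 32.2% in OGTi. Tpm2 made up 5.30%, 8.96%, 8.07% and 8.29% in control and 13.4%, 11.7%, 11.6% and 15.3% in OGTi. No OGTi value of either share overlapped the control values, with Tpm4 lower by 6.43 percentage points (41.3% ± 3.6 against 34.8% ± 1.9, SD, n = 4) and Tpm2 higher by 5.34 (7.65% ± 1.6 against 13.0% ± 1.8, SD, n = 4). The shares of Tpm1 (36.7% ± 3.4 and 37.8% ± 2.4) and Tpm3 (14.4% ± 2.1 and 14.3% ± 2.2, SD, n = 4) differed by less than 1 SD of the pair differences. The summed tropomyosin TPM was 4187 ± 598 in control and 2376 ± 269.7 in OGTi (SD, n = 4), lower in 4 of 4 pairs, while the TPM of Tpm2 itself was 323 ± 88.8 and 311 ± 74.4 (SD, n = 4). TPM carry no TMM factor. Mean CPM in control and OGTi were 1852 and 1121 (Tpm4), 1388 and 1027 (Tpm1), 663 and 479 (Tpm3), and 312 and 383 (Tpm2). The tropomyosin shares are given as a description, with no test. An exact two-sided sign-flip permutation test on 4 pairs cannot go below p = 0.125.

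**Figure D3:**
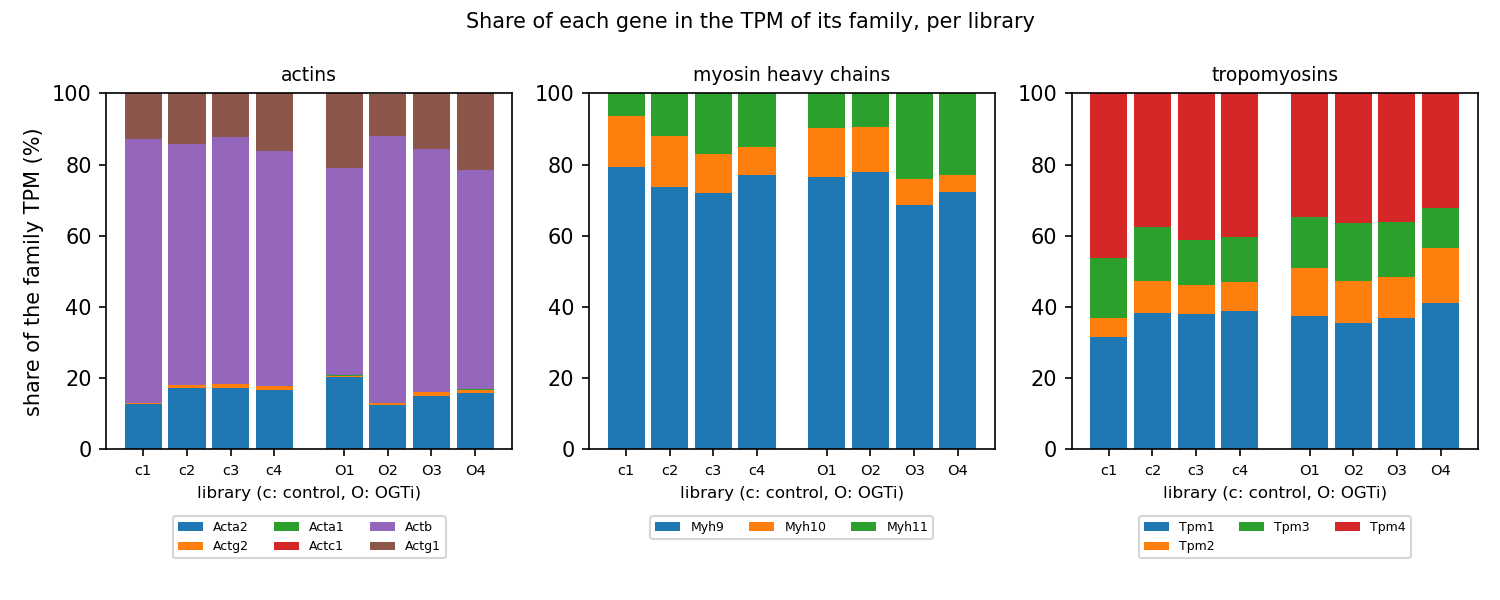
Share (%, linear axis) of each gene in the summed TPM of the actins, the myosin heavy chains and the tropomyosins, one stacked bar per library (c, control, O, OGTi, numbered by replicate). The Tpm2 band is wider in OGTi (11.6% to 15.3%) than in control (5.30% to 8.96%), whereas the Acta2 band has the same mean of 16.0% in both groups.

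The remaining thin-filament members did not pass the test. Cald1 (caldesmon, which restrains actin-activated myosin) had a log2 fold change of -0.34 ± 0.16 (SE, adjusted p = 0.187) and was lower in 4 of 4 pairs. Smtn (smoothelin, found in contractile smooth muscle) stood at -0.45 ± 0.23 (SE, adjusted p = 0.211), and Lmod1 (leiomodin, which seeds actin filaments in smooth muscle) at -0.74 ± 0.29 (SE, adjusted p = 0.105). Synpo2 (synaptopodin 2) was barely detected, at 0.232 to 1.03 CPM in control and 0.279 to 0.376 CPM in OGTi, with a log2 fold change of -0.65 ± 0.60 (SE, adjusted p = 0.51).

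The crosslinkers contained changes in opposite directions. Actn4 (chr7:28592672-28661839), the non-muscle alpha-actinin that bundles actin filaments, measured 1488, 1509, 1849.8 and 1817 CPM in control and 730.1, 1033, 1013 and 1193 CPM in OGTi. All OGTi values lay below all control values, and the log2 fold change was -0.76 ± 0.17 (SE, adjusted p = 0.0135). Its paralog Actn1 had a similar estimate, -0.70 ± 0.24 (SE, adjusted p = 0.0756), which did not pass the test, and its lowest library was OGTi replicate 1 at 36.5 CPM. Flnc (chr6:29433072-29461887), a filamin best known from striated muscle that is recruited to strained or damaged actin structures, was the one member that rose. It measured 73.0, 71.8, 56.2 and 94.3 CPM in control and 94.0, 179, 194 and 244 CPM in OGTi. Flnc was higher in 4 of 4 pairs, 2.32-fold in the fit (log2 fold change 1.22 ± 0.25 SE, adjusted p = 0.00869), although OGTi replicate 1 lay just below the highest control value. It did not pass without replicate 3 or when limma was run on log2 TPM. Flna, the filamin of most cells, stood at -0.29 ± 0.18 (SE, adjusted p = 0.302) and was lower in 4 of 4 pairs. Whether Flnc and Flna differ in their response was not tested.

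The intermediate filaments did not pass the test in edgeR, where 1 of 3 (Nes) was below an unadjusted p of 0.05, or in DESeq2, while limma on log2(TPM + 1) called 1. Des (desmin), a classical stellate cell protein in rodents, had a log2 fold change of -0.19 ± 0.22 (SE, adjusted p = 0.626). Vim (vimentin) stood at 0.45 ± 0.22 (SE, adjusted p = 0.195). Nes (nestin) stood at -0.47 ± 0.18 (SE, adjusted p = 0.11), and its OGTi values, 142 to 171 CPM, all lay below its control values, 191 to 230.0 CPM.

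Of the regulators, both MRTF coactivators fell. Mrtfa (chr15:80896482-81074969) measured 35.9, 60.5, 58.1 and 63.7 CPM in control and 17.3, 45.3, 29.4 and 35.5 CPM in OGTi. The groups overlapped because control replicate 1 was low, while each pair was lower by 0.42 to 1.05 on the log2 scale (log2 fold change of -0.82 ± 0.21 SE, adjusted p = 0.0238). Mrtfb (chr16:13073858-13235394) measured 32.1, 35.9, 39.5 and 29.6 CPM in control and 19.2, 23.5, 20.3 and 13.7 CPM in OGTi. These groups did not overlap, and the log2 fold change was -0.86 ± 0.21 (SE, adjusted p = 0.0202). Srf itself was of low level, with 12.8, 9.23, 11.1 and 10.5 CPM in control and 7.99, 7.67, 6.38 and 6.09 CPM in OGTi. Every OGTi value was below every control value, yet the estimate of -0.63 ± 0.23 (SE, adjusted p = 0.088) did not pass the test. Mrtfa lost its call without the block, without replicate 3 or 4 and with the trend on gene length removed, and Mrtfb lost it without replicate 3 or 4.

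Myocd (myocardin), the SRF coactivator of differentiated smooth muscle and heart, was close to undetected, with 0, 0, 0 and 0 CPM in control and 0.0287, 0, 0 and 0.0967 CPM in OGTi, and was not tested. Upstream of actin, Rhoa, the GTPase that drives stress fibre assembly, had a log2 fold change of 0.01 ± 0.20 (SE, adjusted p = 0.975). The kinases Rock1 and Rock2 had estimates of opposite sign, with Rock2 at -0.68 ± 0.22 (SE, adjusted p = 0.0579) and all 4 OGTi values (45.6 to 60.1 CPM) below the control values (66.1 to 93.8 CPM). Rock1 stood at 0.43 ± 0.20 (SE, adjusted p = 0.178), with all 4 OGTi values (53.4 to 58.4 CPM) above the control values (35.8 to 47.8 CPM). Neither passed the test, although Rock2 was called lower in 7 of 14 alternatives, DESeq2 among them, and Rock1 higher in 1, with the length trend removed. The difference between them was not tested.

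**Figure D4:**
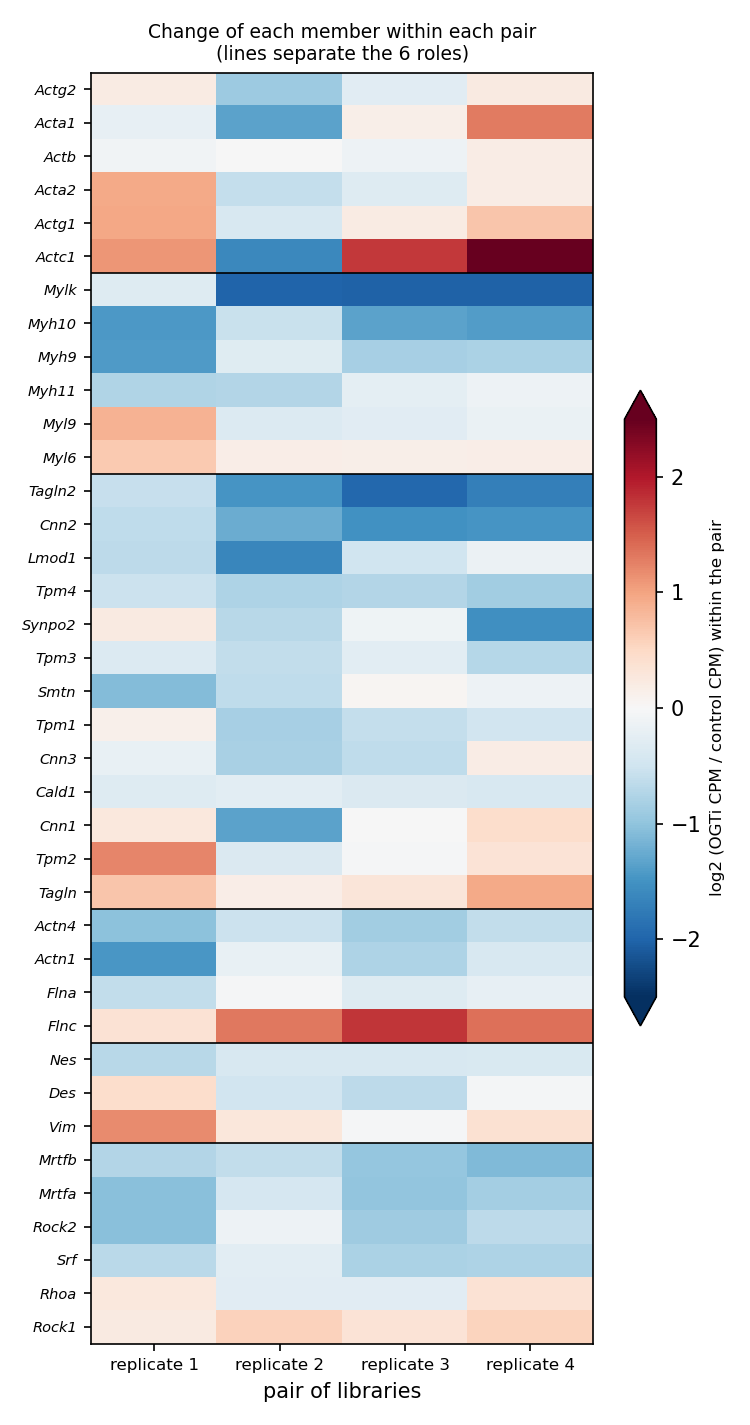
Log2 ratio of OGTi to control CPM (0.1 CPM added to both) within each pair of libraries, for the 38 members tested, ordered by fold change within each of 6 roles and coloured from blue (lower in OGTi) to red (higher). Mylk, Tagln2, Cnn2, Tpm4, Actn4, Mrtfa and Mrtfb are blue in all 4 pairs and Flnc red in all 4, whereas Acta2, Cnn1, Tpm2 and Rhoa change sign between pairs.

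In 2 of the OGTi libraries the place of a member's value went with transcript length. Among the 19 members at or above the median length (2624 bases), OGTi replicate 1 had the lowest OGTi value in 12. Among the 19 shorter members it had the highest OGTi value in 10. OGTi replicate 2 went the other way, with the lowest OGTi value in 13 of the shorter members and in 2 of the longer ones. In the control group the counts for longer and shorter members lay closer together, control replicate 1 being lowest in 9 longer and 10 shorter members and control replicate 4 highest in 10 longer and 7 shorter ones. The members that fell had a median length of 4288 bases, and those that did not pass the test had one of 2031 bases. Over all genes tested, the medians were 3406 bases for genes called lower and 2443 bases for genes called higher. With the trend on length taken out of each library, 12 members passed the test (20.5% of all genes did), 10 lower and 2 higher, and 9 of the 10 members named above were among them, while the member median moved from -0.40 to -0.23. The part of length in the individual values was not tested further.

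Calls were then counted with each pair left out. Without replicate 3, 3 members passed (Mylk, Tagln2 and Cnn2), and without replicate 4, 6 passed. The background moved in the same way, since 9.9% of genes passed without replicate 3 and 10.4% without replicate 4. Without replicate 1 or 2, 10 members passed (16.2% and 16.0% of all genes), of which 9 were among the original 10 in each case. Over these 4 fits the log2 fold change of each member that lost its call in any of them kept its sign, from -1.37 to -1.10 for Myh10, -0.99 to -0.64 for Myh9, -0.93 to -0.75 for Mrtfa, -0.91 to -0.76 for Mrtfb, -0.81 to -0.67 for Actn4, -0.79 to -0.67 for Tpm4 and 1.02 to 1.496 for Flnc.

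The genes that act with the members were followed in lists of 74 genes from the wider pathway, all of which were tested. Of these, 15 fell, 4 rose and 55 did not pass the test, with a median log2 fold change of -0.16, where 10.2% of all genes fell and 8.13% rose. DESeq2 called 22 of the 74, beside 28.2% of all genes. Among 20 adhesion and LIM-domain partners linked to SRF, 8 fell and 0 rose, with a median of -0.59. The largest falls were those of Synm (synemin, an intermediate filament protein, -1.92 ± 0.27 SE, adjusted p = 0.00134), Lpp (a LIM protein of focal adhesions, -1.59 ± 0.20 SE, adjusted p = 0.000931) and Tgfb1i1 (Hic-5, a paxillin relative, -1.36 ± 0.22 SE, adjusted p = 0.0026). Lpp measured 500.2, 404, 650.1 and 697 CPM in control and 140.1, 189.9, 178 and 237 CPM in OGTi, so that its groups were far apart.

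Ternary complex factors are the other partners of SRF, through which growth factor signals switch on immediate early genes. Of 10 such genes, 4 rose and 2 fell, with a median of 0.96. Nr4a1 measured 10.2, 8.76, 15.6 and 27.2 CPM in control and 71.0, 51.3, 182 and 356 CPM in OGTi, and its log2 fold change was 3.15 ± 0.26 (SE, adjusted p = 0.000201). Egr1 (2.34 ± 0.47 SE, adjusted p = 0.00734) and Fos (1.67 ± 0.21 SE, adjusted p = 0.000876) rose with it, while Elk3 (-1.33 ± 0.29 SE, adjusted p = 0.0103) and Egr2 (-1.01 ± 0.25 SE, adjusted p = 0.0201) fell. The fourth gene that rose was Elk4 (1.44 ± 0.25 SE, adjusted p = 0.00349), a ternary complex factor named here after its value was seen. Of the 3 ternary complex factors in the list, Elk4 thus rose, Elk3 fell and Elk1 (-0.14 ± 0.31 SE, adjusted p = 0.805) did not pass the test. The groups of Nr4a1, Egr1 and Fos did not overlap. These immediate early genes rose in the same libraries in which 9 members fell, and the difference between both groups was not itself tested.

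Of 19 genes of actin monomer binding and filament turnover, such as cofilin and profilin, 0 passed the test in edgeR and 0 in DESeq2, and their median was -0.11. In this list 2 genes were below an unadjusted p of 0.05 in edgeR, and limma on log2(TPM + 1) called 4. The shares of all genes called were 18.4% in edgeR, 28.2% in DESeq2 and 23.3% in that limma fit.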

How the data were processed

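RNA from 8 cultures was sequenced by the authors as stranded, paired-end, polyadenylated libraries. Per the study's methods and the submitters' processing notes, the authors aligned reads with Bowtie2 2.3.5.1 to mm39 and counted them with RSEM 1.3.1. GENCODE is named as the annotation in the methods, but the deposited tables carry RefSeq transcript identifiers. The deposited tables give, per library, expected counts (RSEM estimates, unnormalized), TPM (scaled by the authors for length and depth) and gene lengths in bases. The authors' deposited comparison table (DESeq2 1.36.0 fold changes and p-values) was not used, and the number of unused columns of other samples was 0.

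Expected counts were rounded and fitted with edgeR 4.0.16 in R 4.3.3 (glmQLFit, glmQLFTest, TMM scaling, replicate block) over the 19963 of 40840 genes with a total of at least 10. The biological coefficient of variation was 0.342. SE is the log2 fold change divided by the root of F. P-values measure the spread between these 4 cultures per group, which the study describes as independent experiments, and the SEs and intervals come from the same fit and hold that spread too. In the study the replicate number marks paired cultures. Deviations from group means of same-numbered libraries correlated across genes at 0.160, 0.224, 0.105 and 0.318 for replicates 1 to 4 (differently numbered, -0.312 to 0.208).

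The members and lists were chosen by name with earlier results of these data known. Every member is named. Values per library are given for each called member and for Acta2, Tagln, Cnn1, Myh11, Myl9, Actb and Srf, with Actc1, Myocd and some pathway genes added after their values were seen, and at most 3 genes in each direction per pathway list. One of the pathway lists, counted in the 74 genes, is not reported here on its own. Gene coordinates are from GENCODE vM39 (GRCm39). Alternatives used DESeq2 1.42.0, limma 3.58.1 on log2(TPM + 1) or log2(TPM + 0.1), other scalings and filters, a length offset and leaving out each pair. The scripts were tested on simulated counts.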

Additional observations from a re-analysis of the deposited data

Results flagged for a closer look

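In 5 of 99 groups of 4 values examined (the members and the pathway genes selected by the naming rule, by group), 1 library stood apart from the other 3 by Dixon's criterion, where chance would give about 4.95. OGTi replicate 4 held 17.4 CPM of Actc1, the other OGTi libraries 0.0940 to 0.774. OGTi replicate 2 held 17.3 CPM of Myh10 (others 10.4 to 11.0) and 0.376 CPM of Synpo2 (others 0.279 to 0.290). Control replicate 4 held 218 CPM of Smtn (others 132 to 146). OGTi replicate 1 held 36.5 CPM of Actn1 (others 72.1 to 77.1). Of these 5 genes, only Myh10 passed the test, and its high library lies towards the control values. The cause of these differences was not tested.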

How the results depend on the processing

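Mylk, Tagln2 and Cnn2 passed the test in all 14 alternatives, and no called member changed sign in any. Members called numbered 10, with 1 higher and 9 lower. They numbered 18 (17 lower, 20.9% of all genes called) with library totals in place of TMM, 16 (23.3%) with limma on log2(TPM + 1), 18 (23.6%) on log2(TPM + 0.1) and 21 (35.4%) with a mean TPM of at least 1, each of the last 3 with 0 higher and all lower. The share of all genes called lower in these 4 fits was 14.6%, 17.3%, 17.4% and 28.7%, above the share called higher (6.29%, 5.99%, 6.19% and 6.67%). Higher calls numbered 2 without the low-count filter and 2 with the length trend removed. Leaving out a pair gave 3 to 10 calls, 0 to 2 higher and 3 to 9 lower. In the pairing analysis, the fit with no replicate block called 9 members (15.0% of all genes), 1 higher and 8 lower, without Myh9 and Mrtfa and with Rock2. The member median of -0.40 became -0.60 with library totals, -0.23 with the length trend removed, and -0.64, -0.68 and -0.67 with limma at the settings above. Pathway genes called numbered 19 (15 lower), beside 18.4% of all genes (10.2% lower). They numbered 30 (26 lower) with log2(TPM + 0.1) and 31 (27 lower) with the TPM minimum, where 23.6% and 35.4% of all genes were called. Without a pair they numbered 11 to 18 (7 to 13 lower), beside 9.9% to 16.2% of all genes. Pathway genes called lower numbered 23 with log2(TPM + 1) and 9 with upper-quartile scaling, beside 17.3% and 8.68% of all genes called lower.

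Signs changed in 9 members that passed the test in no analysis (lowest adjusted p with the changed sign 0.149). With library totals, Acta2 was -0.14, Myl9 -0.18 and Rhoa -0.18. With limma on TPM, at each setting, Acta2 was -0.27, Myl6 -0.047, Myl9 -0.31, Tpm2 -0.032 and Rhoa -0.31. Acta1 was 0.0086 without the block, 0.022 with DESeq2, 0.10 with upper-quartile scaling and 0.011 with the stricter filter, and Actb was 0.036, 0.11 and 0.026 in the last 3. Myl9 was -0.057 with the length trend removed. Without a pair, the ranges were Acta2 -0.24 to 0.30, Actg2 -0.33 to 0.071, Acta1 -0.45 to 0.44, Actb -0.063 to 0.031, Myl9 -0.26 to 0.16, Cnn1 -0.35 to 0.25, Tpm2 -0.012 to 0.54 and Rhoa -0.091 to 0.14. The causes were not tested. Actc1, Synpo2 and Myocd rest on few counts, which limits them more than the other members.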
